A study of Mus musculus with 26 samples.

Results

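The C-to-U editing sites of 4 genes that act on phosphatidylserine were examined in mouse bone marrow-derived macrophages: Tmem30a, Anxa5, Anxa4 and Axl. Members were all entries with these gene symbols in the deposited lists of edited sites, 10 of 410 bulk sites and 4 of 171 single-cell sites. Since Anxa5 has the same site in both lists, the entries make 13 positions. By gene, these are 4 symbols, against 275 in the whole bulk list and 89 among the single-cell sites.

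The study set bulk RNA of Apobec1-/- macrophages, which lack the cytidine deaminase that changes C to U in messenger RNA, against that of wild-type macrophages, and then sequenced single wild-type macrophages. Mice of both genotypes were on the C57BL/6J background and 6 to 8 weeks old, and their marrow was grown in M-CSF, the growth factor that turns progenitors into macrophages, at 20 ng per ml for 7 to 9 days without further stimulation. The single-cell group held 24 wild-type cells captured on a microfluidic chip, and bulk RNA came from 1 library per genotype, each from 500000 to 1000000 cells. The Apobec1-/- library entered through the filter of the bulk list only, which dropped any change that the knockout reads also carried, so every bulk rate below is that of the wild-type library. Both Anxa4 sites and the Axl site of the single-cell list are not in the bulk list, so their dependence on Apobec1 was not tested here.

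Phosphatidylserine is a lipid that living cells hold on the inner face of the plasma membrane. P4-ATPase flippases move it there, and most of them need TMEM30A (CDC50A), a chaperone subunit, to leave the endoplasmic reticulum and work. Dying cells show the lipid on their surface, where macrophages read it as a signal to engulf them. Annexin A5 and annexin A4, the products of Anxa5 and Anxa4, bind acidic phospholipids when calcium is present. AXL is a receptor tyrosine kinase of the TAM family, which the bridging protein GAS6 links to exposed phosphatidylserine.

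All 13 positions fell in the 3′ untranslated region, within the last exon, and all 4 genes are read from the minus strand (GRCm38, which is the mm10 build, with the GENCODE vM21 annotation). The Anxa5 gene spans chr3:36448923-36475894, and its site, chr3:36449030 in exon 13, lay 314 nucleotides after the stop codon in an untranslated region of 421. Anxa4 spans chr6:86736840-86793584. Its sites in exon 13 lay 190 nucleotides (chr6:86737574) and 846 nucleotides (chr6:86736918) after the stop codon, the second only 77 nucleotides before the transcript end. Axl spans chr7:25757273-25788705. Its sites in exon 20 lay 164 nucleotides (chr7:25758498, single-cell list) and 277 nucleotides (chr7:25758385, bulk list) after the stop codon, 113 nucleotides apart.

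Tmem30a spans chr9:79768943-79793507 and its 8 sites all lay in exon 7, in an untranslated region of 2343 nucleotides. Of these, 7 were packed into 556 nucleotides, from chr9:79770705 to chr9:79771261, beginning 25 nucleotides after the stop codon. The eighth, chr9:79769080, lay 1625 nucleotides further on, at 94.2% of the length of the untranslated region. Gaps between neighbouring sites had a median of 98 nucleotides, and the closest neighbours, chr9:79771040 and chr9:79771044, were 4 nucleotides apart. Sites this close are read by many of the same sequencing reads and are not independent measurements.

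**Figure D1:**
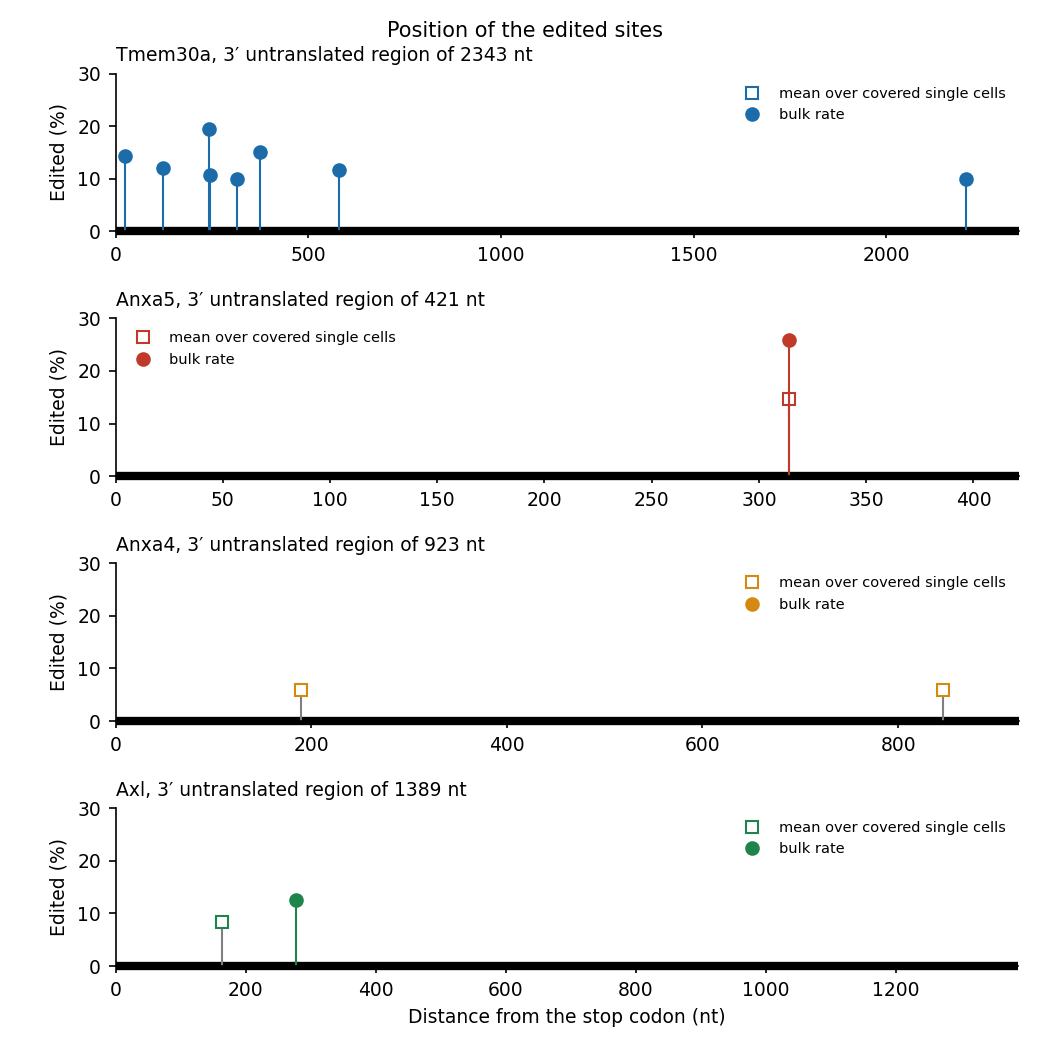
Each panel shows the 3′ untranslated region of a gene, with the distance from the stop codon in nucleotides on the horizontal axis and the percentage of reads edited on the vertical axis; open squares are means over covered single cells and filled circles are bulk rates. Tmem30a has 7 of its 8 sites within 556 nucleotides near the stop codon, and Anxa5 is the only gene with both symbols at the same position.

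The transcript sequence around the sites is shown because APOBEC1 is known to favour particular neighbours of the edited base. Printed are 9 of the 13 windows: all those of Anxa5, Anxa4 and Axl, and for Tmem30a the site with the highest rate, the isolated site and the sites followed by TGAT. Each line gives 10 bases before the edited C, the C in capitals and 19 bases after it, read 5′ to 3′ on the minus strand and written with T for U. The sequences are from the RefSeq GRCm38.p6 genome. The letters TGAT, with which the mooring sequence downstream of the edited base in apolipoprotein B mRNA begins, are in capitals where they occur.
Anxa5 chr3:36449011-36449040: aaattgtgaaCtcttggaaatgctgtcaat
Anxa4 chr6:86737555-86737584: taaacttgtaCtttcaaagctttcaagaca
Anxa4 chr6:86736899-86736928: tattcagaaaCtgtgcttgcatttaatcat
Axl chr7:25758479-25758508: ctatccataaCagtttcaagggatcgtctc
Axl chr7:25758366-25758395: atgcttgtttCtaggtctgcagcgctgttg
Tmem30a chr9:79771025-79771054: gctaaaatgaCattctaatgtctgcttttt
Tmem30a chr9:79770953-79770982: aatgcgtctaCtgcttaaactgtTGATgct
Tmem30a chr9:79770891-79770920: tgtgtgcctaCtgtgTGATgaaagggatta
Tmem30a chr9:79769061-79769090: gagaagataaCtgttctaatagaggataat

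An A stood directly before the edited C at 11 of the 13 positions (84.6%), against 357 of 410 sites of the whole bulk list (87.1%) and 141 of 171 of the whole single-cell list (82.5%). The 2 exceptions, with a T before the C, were the bulk site of Axl and chr9:79771040 in Tmem30a. Tmem30a itself had the A at 7 of its 8 sites. TGAT was found in the 19 downstream bases at 2 of 13 positions (15.4%), both in Tmem30a, against 47 of 410 bulk sites (11.5%) and 18 of 171 single-cell sites (10.5%). On the opposite strand of the same bases it was found at 2 of 13 positions, and at 34 bulk sites (8.29%) and 20 single-cell sites (11.7%). Windows of 30 bases had a median AT content of 66.7% at the members, 66.7% over the bulk list and 63.3% over the single-cell list. By these measures the members were close to the lists they came from.

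In bulk, Anxa5 was the most edited of the 3 genes with a listed site, and the 8 Tmem30a sites ranked between 44 and 345 of 410 by rate, with a median rate near that of the list. At Anxa5, 24 of 93 reads carried the change, a rate of 25.8% (exact Clopper-Pearson 95% interval 17.3% to 35.9%). Of the 410 listed sites, 23 had a higher rate and 386 a lower one, and the read depth of Anxa5 ranked 10 in the list. Intervals cover counting error only, because there was 1 library, and reads that carry no molecular identifier may repeat a molecule. In a bulk rate, strong editing in a few cells and weak editing in most cells cannot be told apart.

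At Tmem30a the rates ran between 10.0% and 19.4%, at 17 to 50 reads per site. From the stop codon outward, 4 of 28 reads (14.3%), 4 of 33 (12.1%), 7 of 36 (19.4%), 4 of 37 (10.8%), 4 of 40 (10.0%), 5 of 33 (15.2%), 2 of 17 (11.8%) and 5 of 50 (10.0%) were edited. The highest of them, chr9:79771044, had an interval of 8.19% to 36.0%, and the isolated site near the transcript end, chr9:79769080, one of 3.33% to 21.8%. The intervals of the 8 sites all overlapped. The site with 2 edited reads of 17, chr9:79770705, had the lowest depth found anywhere in the list, and its interval was 1.46% to 36.4%.

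The median over the 8 Tmem30a sites was 11.9% and the mean was 12.9% ± 3.23 (SD over sites), against a median of 11.8% and a mean of 14.2% ± 8.17 over all 410 sites. Summed over sites, 35 of 274 Tmem30a base calls were edited, or 12.8%. The bulk site of Axl had 5 edited reads of 40, 12.5% (4.19% to 26.8%), and also stood near the list median. A site could enter the list only above a minimum of depth and editing, so these rates are those of sites that passed. The paper equates its filter to an editing rate of roughly 10%, and 28 of the 410 sites lay below 10.0%, the lowest at 5.00%. Most Tmem30a rates and that of Axl stood little above this floor, which limits how far they could lie below the list median.

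**Figure D2:**
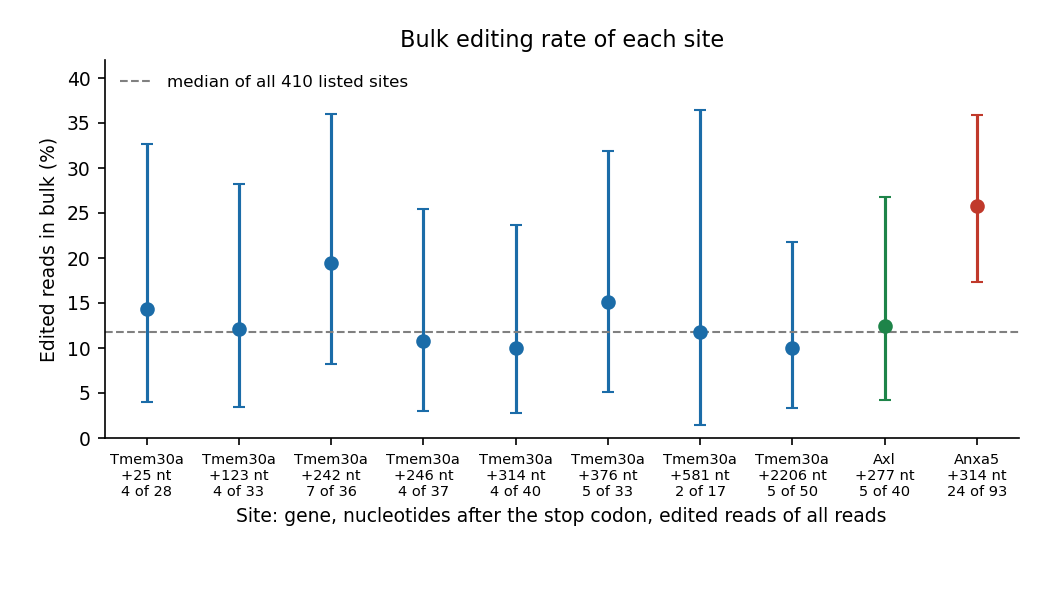
The percentage of reads edited in the wild-type bulk library is plotted for each of the 10 member sites, with exact 95% intervals as bars and the edited and total reads under each site; the dashed line is the median of all 410 listed sites, 11.8%. Anxa5 stands highest at 25.8%, and the intervals of all Tmem30a sites and of Axl include the dashed line.

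Whether these rates differed from each other was tested with two-sided Fisher exact tests on the reads of every pair of the 410 sites, with Benjamini-Hochberg adjustment over all 83845 pairs. Over the list, 1420 pairs differed at an adjusted p of 0.05 or less, or 1.69%. Of the 45 pairs among members, 0 differed, and 1 had an unadjusted p at or under 0.05. That pair was Anxa5 against the isolated Tmem30a site, with 25.8% against 10.0%, a difference of 15.8 percentage points (95% interval 2.02 to 27.1, Fisher exact p = 0.0292, adjusted p = 0.800). Anxa5 exceeded Axl by 13.3 points, with an interval of -2.39 to 25.3 (Fisher exact p = 0.111, adjusted p = 1.00). The distance between the annexin and the other members was therefore not detectable at this depth.

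Within Tmem30a, 0 of 28 pairs differed, 0 of them at an unadjusted p under 0.05 in the Fisher exact test. The pair farthest apart by this test was chr9:79771044, at 19.4%, against chr9:79769080, at 10.0%. Its difference of 9.44 points had an interval of -5.49 to 26.0 (Fisher exact p = 0.227), so differences of that width are compatible with the reads. Of all pairs of 2 sites in the same gene in the list, 3.77% differed. Close neighbours within a gene share many reads, which the Fisher exact test treats as separate.

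Against the rest of the list, Anxa5 differed from 3 of 400 sites, all edited more strongly. These were sites in Cd36 (84.1%), a scavenger receptor, in Serinc1 (83.9%) and in Prkacb (88.9%), which encodes a catalytic chain of the cAMP-dependent kinase, with a largest adjusted p of 5.59e-05 in the Fisher exact test. All 8 Tmem30a sites differed from the same 3 sites, with adjusted p-values of at most 3.69e-04. Over the 3200 pairs of a Tmem30a site with another gene, 28 differed, the others involving sites in B2m and Man2a1. Axl differed from 3 of 400. These shares lie below the 1.69% found over all pairs.

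Few sites stood in both lists, among the members as among all sites. The whole lists shared 55 sites, 13.4% of the bulk list and 32.2% of the single-cell list. Of the 10 bulk and 4 single-cell member entries, the only shared site was that of Anxa5. Tmem30a, which ranked 4 in the bulk list by number of sites, had 0 of its 8 sites in the single-cell list and no other site there. The other genes with 5 or more bulk sites all had some: App, the amyloid precursor protein gene, shared 9 of 12, B2m, which encodes the β2-microglobulin chain of MHC class I molecules, 6 of 6, Atp6ap2 4 of 9, Lamp2 3 of 9 and Sh3bgrl 3 of 6. Tmem30a had a median depth of 34.5 reads in bulk, against 32 for Lamp2, 39 for Sh3bgrl, 59 for Atp6ap2, 61 for App and 98.5 for B2m. Depth and editing rate both moved with sharing over the whole list: shared sites had a median depth of 62 reads and a median rate of 15.4%, and the 355 others 27 reads and 11.8%. Their part in the missing Tmem30a sites was not tested. Only 13.4% of all bulk sites were shared, but each of the other genes with 5 or more bulk sites shared a larger part of its own. Whether 0 of 8 is particular to Tmem30a was not tested. The single-cell list holds only sites edited in at least 3 of the 24 cells, so an unlisted site may have been uncovered, unedited or edited in fewer cells.

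Anxa5 had its 1 site in both lists. Anxa4 appeared in the single-cell list only, with 2 sites. Axl had 1 site in each list, at different positions.

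In the single cells, Anxa5 was edited at a low to moderate rate in most cells, while the Anxa4 and Axl sites were at 0 in most cells and high in a few. Anxa5 was covered in 24 of 24 cells and edited in 22. Its rates had a lowest value of 0%, a median of 14.5% and a highest value of 36.0%, with a mean of 14.8% ± 9.25 (SD, n = 24 cells). Rates of 10% or less were found in 10 cells, rates above 10% and up to 20% in 6, and rates above 20% in 8. The cells were thus spread over the whole range, and the lowest rate above 0 was 4.88%. The list gives no read depth per cell, so these SDs hold counting error as well as differences between cells, and a rate of 0 sets no upper limit.

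At Anxa5, 21 of 24 cells were below the bulk rate of 25.8% and 3 were above it. The bulk interval held 8 cells, 15 lay below it and 1 above. The mean over cells was 0.572 times the bulk rate. This was the usual relation between the lists: over the 55 shared sites the ratio of the single-cell mean to the bulk rate had a median of 0.583 (0.242 to 1.25) and was below 1 at 51 sites, and 24 sites had a ratio under that of Anxa5. The libraries differ in kit and amplification, and the lists in their filters, and the part of these in the ratio was not tested.

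At Anxa4 the site 190 nucleotides after the stop codon was covered in 23 cells and edited in 7. The edited cells had rates of 58.8%, 50.0%, 14.7%, 5.56%, 3.70%, 3.45% and 1.96%, and the other 16 were at 0%, giving a mean of 6.01% ± 15.7 (SD, n = 23). The site 846 nucleotides after the stop codon was covered in 24 cells and edited in 6, at 52.9%, 44.4%, 26.1%, 9.09%, 6.06% and 3.13%. The other 18 were at 0%, and the mean was 5.91% ± 14.4 (SD, n = 24). At each site the median cell was at 0%. The 3 highest cells held 89.4% of the summed rate at the nearer site and 87.1% at the farther one, against 25% at Anxa5. Rates were summed without depth, which is not known per cell, so these are not shares of edited reads. Whether the high rates rest on few reads was not tested.

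At Axl the site was covered in 16 cells only and edited in 3, which is the minimum the list allows. Their rates were 81.8%, 42.3% and 10.5%, and 13 covered cells were at 0%, with a mean of 8.42% ± 22.3 (SD, n = 16). Without the highest cell the mean was 3.52%. The same exclusion, chosen after seeing the data, gave means of 3.61% and 3.86% at the nearer and farther Anxa4 sites and 13.8% at Anxa5. The mean of Axl, and those of both Anxa4 sites, thus rested on single cells more than that of Anxa5.

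**Figure D3:**
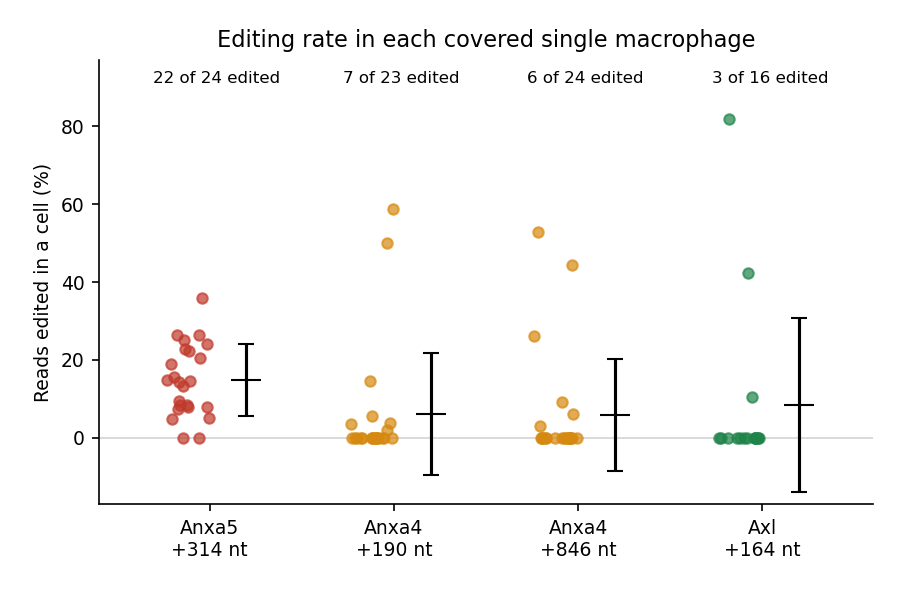
Each point is the percentage of reads edited in a single covered macrophage, with the mean and SD over covered cells in black at the right of each site; the SD bars of Anxa4 and Axl reach below 0, where no rate can lie. Anxa5 has 22 of 24 cells above 0 and a highest rate of 36.0%, while Axl has 3 of 16 cells above 0 and a highest rate of 81.8%.

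Among the 171 sites, Anxa5 ranked 10 by number of edited cells and 18 by mean rate, but 138 by highest rate in a cell and 151 by SD. Axl had the opposite profile, with rank 136 by edited cells and ranks 22 by highest rate and 16 by SD. The Anxa4 sites lay between. The nearer site ranked 53 by edited cells, 68 by highest rate and 75 by SD, and the farther one 68, 84 and 86. The median site of the list was edited in 5 cells, with an SD of 14.4 and a highest rate of 52.6%, so both Anxa4 sites were close to a typical site.

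**Figure D4:**
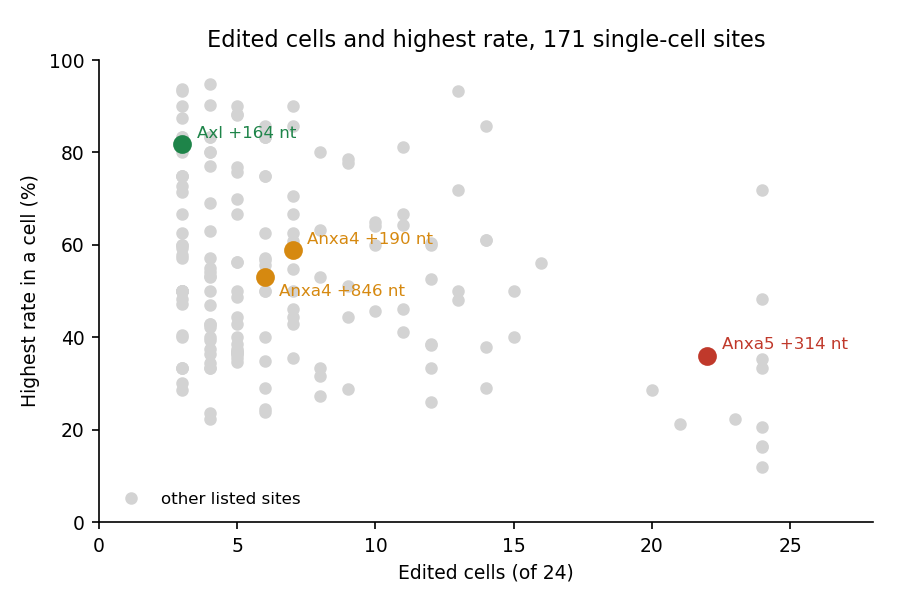
For each of the 171 sites of the single-cell list, the number of edited cells is plotted against the highest percentage of reads edited in a cell; coloured points are the member sites and grey points the others. Anxa5, with 22 edited cells and 36.0%, and Axl, with 3 edited cells and 81.8%, stand at opposite corners of the cloud, with the Anxa4 sites at 6 and 7 edited cells between them.

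The cells with the highest rate were different ones at each site. At Anxa4, cell columns 6 and 19 of the list, which carry no cell names, were the highest at the nearer site, with 58.8% and 50.0%, and were both at 0% at the farther site. Cell columns 9, 11 and 15, with 52.9%, 44.4% and 26.1% at the farther site, were all at 0% at the nearer one. In all, 11 cells had Anxa4 edited at either site, and 2 of them (columns 12 and 16) at both. Across the 23 cells covered at both, 4 were edited at the farther site only, 5 at the nearer site only and 12 at neither. The product of the shares of edited cells at the 2 sites comes to 1.83 cells edited at both, against the 2 observed, so the overlap was no lower than that product. Pearson's r between the 2 sites was -0.138 and Spearman's rho was 0.00157, as descriptions over 23 cells that share their libraries and depth.

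At Axl the highest cell was column 18, where both Anxa4 sites were at 0%, and the cell with 42.3% was column 11, which also had 44.4% at the farther Anxa4 site and 0% at Anxa5. Anxa5 itself was highest in column 7 and at 0% in columns 8 and 11. All 7 cells edited at the nearer Anxa4 site were also edited at Anxa5, which was edited in nearly every cell (r = 0.271, rho = 0.456, over 23 cells). With the farther Anxa4 site the r of Anxa5 was -0.188 over 24 cells, and with Axl it was -0.220 over 16 cells. Of the 24 cells, 1 had none of the 4 sites edited, 10 had 1, 11 had 2, 2 had 3 and 0 had all 4. Uncovered sites count as unedited here, so all 4 was not open to every cell. Column 16 was edited at all 3 sites covered in it.

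**Figure D5:**
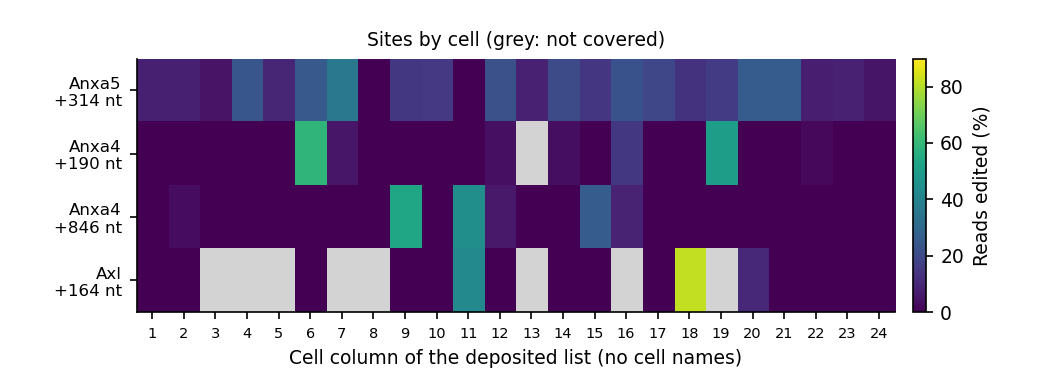
Rows are the 4 member sites of the single-cell list, columns the 24 cells in the order of the deposited list, and colour the percentage of reads edited, with grey for cells not covered. The Anxa5 row is coloured in 22 cells, while the bright cells of the Anxa4 rows (columns 6 and 19, and 9 and 11) do not coincide.

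Mean rates were compared within cells, with a two-sided sign-flip permutation test (100000 resamples) for each of the 13385 pairs of sites covered together in at least 10 cells, and with Benjamini-Hochberg adjustment over all of them. Over the list, 482 pairs differed, or 3.6%. Among the 6 pairs of member sites, 0 differed after adjustment, though the pairs of Axl with Anxa4 could not have been called, as set out below. Anxa5 exceeded the nearer Anxa4 site by 9.03 points ± 15.9 (SD, n = 23), and was higher in 19 cells and lower in 2 (permutation p = 0.0134, adjusted p = 0.216). It exceeded the farther site by 8.85 points ± 18.5 (SD, n = 24), higher in 20 cells and lower in 3 (permutation p = 0.0284, adjusted p = 0.337). Both differences kept their sign whichever cell was left out. Whether the first passed the threshold turned on single cells: without column 6 it was 11.0 points and without column 19 also 11.0. The permutation p-values were then 0.00113 and 0.00101, below the largest unadjusted p among the pairs called over the list, 0.00178. The second did not pass, its lowest permutation p being 0.00187, without column 11.

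Anxa5 exceeded Axl by 6.15 points ± 25.3 over 16 cells, and was higher in 14 of them and lower in 2 (permutation p = 0.359, adjusted p = 0.995). The Anxa4 sites differed from each other by -0.15 points ± 22.9, nearer minus farther, over 23 cells (permutation p = 0.981), while 6.65% of pairs within the same gene differed over the list. Axl minus the nearer Anxa4 site came to 4.17 points ± 28.1 and Axl minus the farther one to 0.12 points ± 26.3, over 16 cells each (permutation p = 0.622 and 0.984). Without column 18, the highest cell at Axl, these differences were -1.01 and -5.32 points, and with uncovered cells at 0 they were -0.15 and -0.30 points, so their sign rested on single cells and on how uncovered cells were treated. The sign of the difference between the Anxa4 sites also turned when column 9, 11 or 15 was left out. In both pairs of Axl with an Anxa4 site, 9 of the 16 cells had equal rates. Too few cells were left for the test to reach the largest called p, 0.00178, so these pairs could not be called at any difference. With SDs of this size, differences of several points between the Anxa4 sites, or between Anxa5 and Axl, were not detectable.

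Set against the other genes of the single-cell list, Anxa5 differed from 21 of 165 sites, 12.7% against the 3.6% over all pairs. The 2 shares are not on an equal footing. The median site of the list was edited in 5 cells, and pairs of such sites have too few cells with a difference to be called. Anxa5 was edited in 22. Of the sites it differed from, Anxa5 was higher than 19 and lower than 2. The sites it exceeded included the less edited ones of genes that have others: B2m chr2:122152804 (14.8% against 7.21% over 24 cells, adjusted permutation p = 0.00454) and Spp1 chr5:104440920, in the osteopontin gene (14.8% against 5.14%, adjusted permutation p = 0.00418). It also exceeded sites in Itgam, an integrin chain of macrophages (15.2% against 4.22% over 22 cells, adjusted permutation p = 0.00418), and in the scavenger receptor Cd36 (14.6% against 3.41% over 19 cells, adjusted permutation p = 0.0233). The sites above it were B2m chr2:122152902 and chr2:122152740, by 30.2 and 16.9 points (adjusted permutation p = 0.000783 for both).

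The other member sites exceeded no site past the adjusted threshold, but this outcome was fixed in advance. Axl was edited in 3 cells and the Anxa4 sites in 6 and 7. A site that is higher in so few cells cannot reach the largest called p, 0.00178, in this test, whatever its rates. The farther Anxa4 site was lower than 4 of 165 (2.42%), the nearer one lower than 3 of 162 (1.85%) and Axl lower than 1 of 153 (0.654%). These shares were under the 3.6% over all pairs, though calls in only this direction were open to them. The sites above them were in B2m, and for the farther Anxa4 site also in Spp1. Axl, with a mean of 8.42%, was below B2m chr2:122152902 by 37.7 points over 16 cells (adjusted permutation p = 0.0197).

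Sites of other genes with the most similar pattern over cells were found by Pearson's r over at least 20 cells covered together, as a description. Named are the 3 highest r among 130 candidate sites for Anxa5, 124 for the nearer and 129 for the farther Anxa4 site. They were picked for their height, so their size carries no test. For Anxa5 they were Atp6ap2 chrX:12616387 (r = 0.565, 23 cells), B2m chr2:122152804 (0.504, 24 cells) and Sh3bgrl chrX:109161435 (0.490, 21 cells), and without the cell highest at Anxa5 the r were 0.394, 0.326 and 0.0796. For the nearer Anxa4 site they were Stx7 chr10:24187950 (0.918, 20 cells), App chr16:84954733 (0.479, 22 cells) and Cd93 chr2:148438164 (0.396, 23 cells). The likeness to Stx7, a syntaxin gene, rested on 3 cells edited at both. Without the cell highest at the nearer Anxa4 site the r was 0.792 for Stx7, -0.03 for App and 0.0951 for Cd93. For the farther Anxa4 site they were Igf1 chr10:87935433 (0.695, 21 cells, 3 edited at both), Atp6ap2 chrX:12615988 (0.630, 21 cells, 2 edited at both) and Cybb chrX:9435726 (0.617, 23 cells, 6 edited at both). Without the cell highest at the farther Anxa4 site the r were 0.931, 0.228 and 0.568. The 2 Anxa4 sites had no gene in common among these. Axl was covered in too few cells to be compared.

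The wider pathway was read from lists of 74 genes, of which 7 had a site in either list. Among 18 flippases and chaperones, Tmem30a was joined only by Atp8a1, a flippase that pairs with TMEM30A, with 2 edited reads of 18 at chr5:67620311 (11.1%, exact interval 1.38% to 34.7%). No site was listed for the 10 scramblase genes or for the 3 genes of phosphatidylserine synthesis. Of 12 annexins, Anxa5 and Anxa4 were listed, and of 6 TAM receptors and bridging ligands, Axl. Of 15 other receptors for apoptotic cells, Cd36 was listed, with 4 bulk sites at 11.5%, 13.3%, 16.2% and 84.1%. Of 10 genes of the engulfment machinery, Rac1, a small GTPase that drives the closing of the phagocytic cup, had 6 edited reads of 69 (8.70%, 3.26% to 18.0%). The lists hold edited sites and no expression values, so genes without a site may be unedited, weakly expressed or filtered out. For the same reason neither the loss of Apobec1 in the knockout library nor the identity of the cells was checked: of 8 macrophage markers Itgam was listed, and of the markers of other cell types none was.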

How the data were processed

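Bulk macrophage RNA of both genotypes and 24 wild-type cells from 1 mouse were sequenced. The submitters' processing notes name Trim Galore 0.2.5, Bowtie, TopHat2 and Picard, with mm10. The deposited bulk list gives, per the authors, the count of reads at each site and the fraction of them edited in the wild-type library. The deposited single-cell list holds a fraction of edited reads for every cell, with neither depth nor cell names, for sites edited in at least 3 cells. PCR duplicates had been removed. Minimum depth and editing set a floor to listed rates.

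Edited reads were depth times fraction, whole within 0.001 at 410 of 410 sites. The list holds 15078 reads, at 17 or more per site. Of 4104 single-cell values 3608 (87.9%) were covered. Sites were placed on RefSeq GRCm38.p6, which has C or G at each of the 410 and 171 positions, and on GENCODE vM21. Tests were Fisher's exact test and sign-flip permutations, each over the whole list, with an adjusted threshold of 0.05. P-values measure counting error in 1 library, or the spread between 24 cells of 1 mouse. Difference intervals are Newcombe's. The procedures were tested on simulated data. The simulated cell rates were continuous, without the many exact 0 values of the Anxa4 and Axl sites, so they do not cover that case. Named sites were all member entries, the 3 most alike sites over at least 20 cells, and every listed gene of the pathway lists; others were chosen after their values were seen. Members and lists were chosen with earlier results of these data known. Alternatives varied the interval, depth, statistic, uncovered cells, the rate that counts as edited and each cell or site left out. Python 3.11.15, NumPy 2.4.6, SciPy 1.17.1, pandas 2.3.3, pysam 0.24.0 and matplotlib 3.10.9 were used.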

Additional observations from a re-analysis of the deposited data

How the results depend on the processing

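Of 263 alternatives over 29 results, 245 kept the direction and side of the threshold of a test, stayed within 1 SD for a mean or within 1.5 times for a count. Many of these could not have moved. Another interval leaves its rate as it was, and leaving out 1 cell or taking the median shifts a mean by at most 1 SD. The count of 245 is therefore no measure of robustness: the mean of Axl fell from 8.42% to 3.52% without its highest cell and still counted as kept. Differences that turned sign, in 10 alternatives, passed the threshold in none: Axl minus the nearer Anxa4 site was -0.15 points with uncovered cells at 0, Axl minus the farther one was -0.30 points so and had a signed-rank sum of -0.214 of its largest possible size, and nearer minus farther Anxa4 had one of 0.0909. With at least 20 reads per site, 834 of 51681 bulk pairs differed (1.61%), and with at least 30 reads 690 of 21736 (3.17%), against 1420, since fewer sites were tested. Counting a cell as edited only at a rate of 0.1 or more left 14 cells at Anxa5, 3 at the farther Anxa4 site and 3 at the nearer, where a rate of 0.05 left 4. Leaving out each cell in turn, Anxa5 minus the nearer Anxa4 site ran between 8.06 and 11.0 points (permutation p between 0.00101 and 0.0251), and crossed the threshold without cell 6 and without cell 19. The other leave-one-out ranges were 7.67 to 11.2 points for Anxa5 minus the farther Anxa4 site, 4.81 to 11.1 for Anxa5 minus Axl, -2.84 to 2.24 for nearer minus farther Anxa4, -5.32 to 3.66 for Axl minus the farther and -1.01 to 8.37 for Axl minus the nearer Anxa4 site, 13.8% to 15.4% for the mean of Anxa5, 3.61% to 6.28% and 3.86% to 6.16% for the nearer and farther Anxa4 sites and 3.52% to 8.98% for Axl. Over the list, 643 single-cell pairs differed with uncovered cells at 0 and 505 with signed ranks, against 482. Depth is unknown per cell, so rates there have no counting interval. No paired analysis was possible because each genotype had 1 bulk library and the cells have no counterpart in another group; the pairing used here is that of 2 sites within a cell.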
